A study of Mus musculus with 18 samples.

Results

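Immediate early genes are switched on within minutes of a signal reaching a cell, without need for new protein, and their transcripts are short-lived. Many encode transcription factors. Fos, Fosb, Jun, Junb and Jund encode subunits of the dimeric factor AP-1, and Atf3, a stress-responsive factor of the related ATF/CREB family, can pair with Jun proteins. Egr1 encodes a zinc-finger factor, Ier2 a small nuclear protein, Dusp1 a phosphatase that switches off MAP kinases, and Zfp36 a protein that speeds the decay of AU-rich mRNAs, so that the last of these form feedback on the same response. Warming and enzymatic dissociation of tissue are also known to induce these genes. The 10 genes named here are well-known immediate early genes, listed with earlier results of these data known. All were present among the 20275 genes of the deposited matrix, and they were followed in every library and cluster.

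The study profiled bone marrow (BM) of C57B6/J mice at embryonic days E16.5 and E18.5, at birth (postnatal day P0) and in adults, with 3′ single-cell RNA-Seq. Hematopoietic progenitors (HPs) were sorted as Lineage-Kit+ cells and stromal cells as CD45-Ter119- cells. There were 5 HP libraries (2 from E16.5, 1 from each other stage) and 4 stromal libraries (1 per stage), all untreated and wild type as far as the labels say. The age of the adults was not analysed here. Each library pooled several mice, and the study states no repeat of the single-cell experiments. Nothing used here says whether the 2 E16.5 HP libraries came from separate pools. The p-values thus measure the spread between these libraries, which may be partly technical. In the test of stroma against HPs, that spread includes changes of the gap from stage to stage. In the adult tests, it includes differences among the perinatal stages of a compartment.

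HP cells came from bones crushed in ice-cold buffer, whereas stromal cells came from crushed bone digested with collagenase and DNase at 37 °C. Preparation and compartment therefore cannot be told apart in any comparison of HPs with stroma. The libraries held 560 to 14084 cells (56201 in all) and 13974733 to 194892476 UMIs (unique molecular identifiers, each standing for 1 captured mRNA molecule). The median number of UMIs per cell ran from 6747 in adult HPs to 23291.5 in the first E16.5 HP library. Over whole libraries the labels held against Ptprc, Col1a1 and Kit. Ptprc (CD45) was at 79.3 to 163 CPM (UMIs of the gene per 1000000 UMIs of the group of cells) in the HP libraries and at most 0.0564 CPM in the stroma, while Col1a1 was at 0.572 to 1.74 CPM in HPs and 1839 to 6383 CPM in the stroma. Kit was at 109 to 348 CPM in the HP libraries and at most 2.48 CPM in the stroma, but differed between HP clusters, as given below. The CPM values count 3′ ends, so they need no division by transcript length, and capture efficiency can still differ between genes.

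Cell barcodes were shared between libraries more often in some HP libraries than in the rest. In the first E16.5 HP library 334 of 560 barcodes (59.6%) were also found elsewhere, 330 of them in adult HPs, against 1.34% to 1.67% in the 4 stromal libraries and the second E16.5 HP library. In adult HPs, 641 cells (10.7% of its cells, 0.675% of its UMIs) carried a barcode that another library held with at least 10 times the UMIs. Leaving such cells out moved the summed level of the 10 genes in adult HPs from 498 to 495 CPM. Each main test below was repeated without them and without the first E16.5 HP library, but the alternative fits were not.

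Among the members with a promoter available here, the promoters of those with the largest fold difference between compartments are shown first. All 10 members were higher in the stroma, as given below, and the start regions of such genes are the part best known to respond to signals. A link between these promoters and the levels was not tested. The files hold no measure of promoter activity. The RefSeq (GRCm38.p6) promoters used here covered 8 of the 10 genes, without Egr1 and Ier2. Egr1, whose difference was larger than those of Fosb and Junb, is thus not shown. Each promoter runs from 250 bases before to 50 bases after the annotated start, written 5′ to 3′ on the gene's strand. Capitals mark the CRE half-site TGACG (the core of the site bound by CREB and ATF proteins) and the TATA box TATAAA on either strand. These are the promoters of Atf3 (chr1:191183284-191183583, minus strand), Fos (chr12:85473640-85473939, plus strand), Fosb (chr7:19309996-19310295, minus strand) and Junb (chr8:84978699-84978998, minus strand).
Atf3: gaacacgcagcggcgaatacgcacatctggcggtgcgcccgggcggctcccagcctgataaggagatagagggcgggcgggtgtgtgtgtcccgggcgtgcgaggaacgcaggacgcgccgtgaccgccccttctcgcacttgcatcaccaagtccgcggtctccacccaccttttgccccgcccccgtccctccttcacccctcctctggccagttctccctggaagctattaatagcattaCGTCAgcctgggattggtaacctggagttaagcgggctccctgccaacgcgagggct
Fos: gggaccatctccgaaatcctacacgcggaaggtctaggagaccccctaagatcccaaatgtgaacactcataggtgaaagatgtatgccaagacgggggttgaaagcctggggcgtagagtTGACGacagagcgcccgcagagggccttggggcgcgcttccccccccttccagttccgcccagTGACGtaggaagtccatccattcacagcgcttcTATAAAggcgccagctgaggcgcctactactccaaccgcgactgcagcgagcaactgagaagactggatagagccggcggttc
Fosb: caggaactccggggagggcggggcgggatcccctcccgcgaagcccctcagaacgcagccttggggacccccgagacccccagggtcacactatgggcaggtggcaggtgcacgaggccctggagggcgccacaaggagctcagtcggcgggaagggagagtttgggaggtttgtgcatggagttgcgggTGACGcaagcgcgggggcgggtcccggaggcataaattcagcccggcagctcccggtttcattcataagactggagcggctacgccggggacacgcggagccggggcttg
Junb: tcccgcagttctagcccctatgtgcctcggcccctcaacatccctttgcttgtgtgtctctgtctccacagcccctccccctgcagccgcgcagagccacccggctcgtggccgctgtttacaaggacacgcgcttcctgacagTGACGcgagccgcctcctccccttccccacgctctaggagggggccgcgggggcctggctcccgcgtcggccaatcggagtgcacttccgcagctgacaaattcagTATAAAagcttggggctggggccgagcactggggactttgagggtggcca
The half-site began 7 bases before the start in Atf3, 60 bases before it in Fosb and 106 bases before it in Junb, and Fos held 2 copies, 129 and 66 bases before its start. Of the 8 members' promoters 5 held the half-site, against 20.8% of 32851 RefSeq promoters of the same length. The full palindrome TGACGTCA, which contains the half-site, was in 1 member (Dusp1, 143 bases before the start) and in 1.79% of all promoters. A TATA box was in Fos (33 bases before the start) and Junb (at the annotated start) and in 13.6% of all promoters. The CArG box, the site of serum response factor, was matched in Zfp36 (58 bases before the start) and in 1.63% of all promoters, and the AP-1 site TGANTCA in none of the 8 and in 7.81% of all. The GC box GGGCGG was in 6 of the 8 and in 35.7% of all, and is left in lower case. These matches describe letters in a window and do not show binding. Sites farther than 250 bases before the annotated start, and any in Egr1 and Ier2, were not searched, so a missing match does not show that a gene lacks the site.

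In the same build the genes lie at chr12:85473890-85477274 (Fos), chr7:19302696-19310118 (Fosb), chr4:95049036-95052222 (Jun), chr8:84976909-84978748 (Junb), chr8:70697739-70700616 (Jund) and chr1:191170296-191183333 (Atf3). Egr1 lies at chr18:34861207-34864956, Ier2 at chr8:84661331-84662852, Dusp1 at chr17:26505591-26508472 and Zfp36 at chr7:28376784-28379228.

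All 10 immediate early genes were higher in the stroma than in HPs at every stage. For all 10, every stromal library lay above every HP library, as it did for 28.7% of 18407 genes tested. The summed level of the 10 genes was 939 and 1013 CPM in the E16.5 HP libraries, 1719 CPM in E18.5 HPs, 1269 CPM in P0 HPs and 498 CPM in adult HPs. In the stroma it was 7063 CPM at E16.5, and 9988, 9394 and 12050 CPM at the later stages in order. Thus 0.0498% to 0.172% of all UMIs of an HP library and 0.706% to 1.20% of those of a stromal library came from 10 genes. The lowest stromal library was 4.11-fold above the highest HP library. With every cell counted equally the ratio was 2.23, and it was 1.96 at equal depth without the shallower cells. Within a stage the ratio of stroma to HPs was 7.24 for E16.5, 5.81 for E18.5, 7.40 for P0 and 24.2 for adults.

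Among the AP-1 genes, Fos stood farthest apart. Fos was at 69.8, 72.6, 142, 102 and 29.7 CPM in HPs (both E16.5 libraries, E18.5, P0 and adult, the order used throughout) and at 1588, 2614, 2448 and 3114 CPM in the stroma (E16.5, E18.5, P0 and adult). Fosb was at 18.0, 55.0, 57.4, 33.2 and 29.0 CPM in HPs and at 387, 669.9, 584 and 860.3 CPM in the stroma. The lowest stromal library exceeded the highest HP library 11.2-fold for Fos and 6.74-fold for Fosb.

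Jun and Jund were the most abundant members in every HP library, and their gap to the stroma was smaller than that of Fos. Jun was at 157, 164, 404, 316 and 123 CPM in HPs and at 1148, 1481, 1119 and 1698 CPM in the stroma. Junb was at 88.3, 127, 173, 136 and 57.4 CPM in HPs and at 963, 1177, 1192 and 1681 CPM in the stroma. For Jund, which in many tissues is expressed without stimulation, the HP values were 350.0, 279.8, 291, 238 and 105 CPM and the stromal values 782, 852, 1149 and 1339 CPM. The lowest stromal library was 2.77-fold (Jun), 5.56-fold (Junb) and 2.23-fold (Jund) above the highest HP library.

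Atf3 varied most between HP libraries. It was at 14.7, 2.23, 34.0, 13.8 and 0.659 CPM in HPs and at 299.8, 489, 387 and 609 CPM in the stroma. The adult HP value rests on 39 UMIs (exact Poisson 95% interval 0.468 to 0.9005 CPM, counting error only) and the 2 E16.5 values on 205 and 214 UMIs. Some of the adult UMIs came from an HP cluster that the authors named Stroma, where Atf3 was at 244 CPM over 40980 UMIs. The HP libraries spanned 51.6-fold and the stromal libraries 2.03-fold.

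Egr1 was at 38.4, 57.9, 169, 113 and 20.4 CPM in HPs and at 932, 1322, 1213 and 1123 CPM in the stroma. Ier2 was at 119, 160.3, 201, 184 and 87.0 CPM in HPs and at 514, 731, 712 and 703 CPM in the stroma. In the stroma both genes changed little with stage, with 1.42-fold between the lowest and the highest library for each. In HPs Egr1 spanned 8.31-fold and Ier2 2.31-fold.

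The feedback genes came closest to overlapping. Dusp1 was at 32.9, 40.7, 94.99, 49.0 and 13.6 CPM in HPs and at 163, 236, 245 and 445 CPM in the stroma. Zfp36 was at 50.6, 54.3, 152, 83.1 and 32.2 CPM in HPs and at 287, 418, 344 and 477 CPM in the stroma. E18.5 HPs lay within 1.71-fold (Dusp1) and 1.89-fold (Zfp36) of E16.5 stroma, the lowest stromal library for both.

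**Figure D1:**
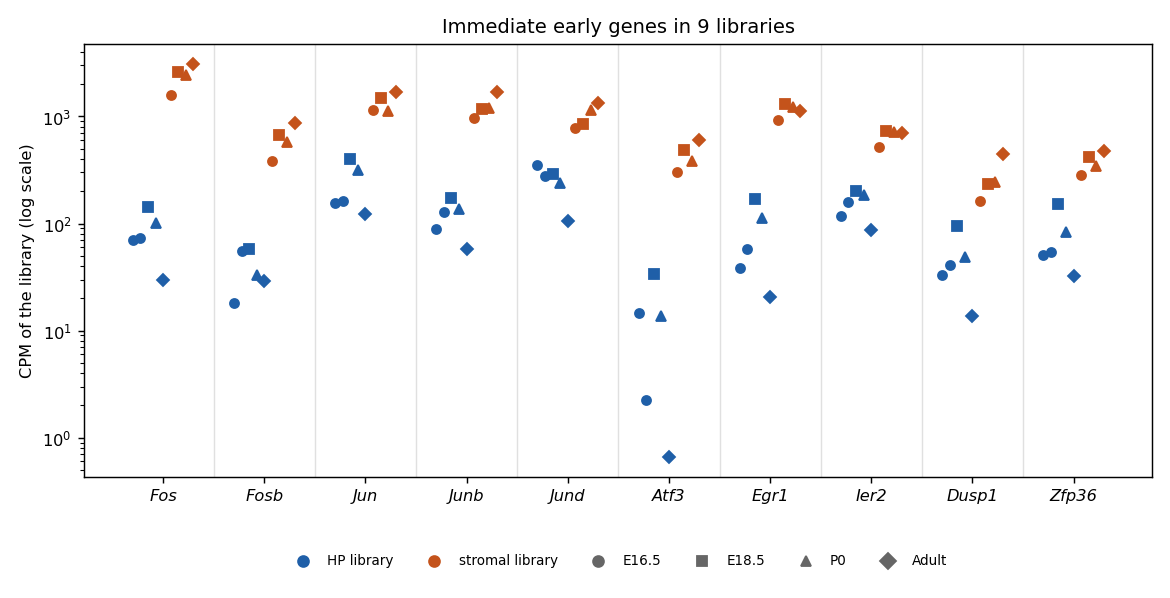
CPM (log scale) of each of the 10 genes in each of the 9 libraries. Color gives the compartment and the symbol the stage. For every gene the 4 stromal libraries lie above the 5 HP libraries, as for 28.7% of all genes tested. The gap is widest for Fos (11.2-fold) and narrowest for Dusp1 (1.71-fold).

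With stage as a term, edgeR's quasi-likelihood test on the summed counts called 10 of 10 members higher in the stroma (Benjamini-Hochberg adjusted p under 0.05). The background was high, since 32.0% of 18407 genes tested were called higher and 25.8% lower. For 28.7% of genes every stromal library lay above every HP library, as for all 10 members. The median log2 difference was 3.07 over the members and 0.05 over all genes. The largest differences were those of Atf3 (log2 difference 5.61 ± 1.03 SE, adjusted p = 0.0036) and Fos (4.98 ± 0.43, adjusted p = 0.000143), followed by Egr1 (4.16 ± 0.44, adjusted p = 0.000365), Fosb (4.00 ± 0.44, adjusted p = 0.000393) and Junb (3.49 ± 0.36, adjusted p = 0.000293). The others ranged from 2.20 (Jund, SE 0.38, edgeR adjusted p = 0.00276) to 2.65 (Dusp1, SE 0.52, adjusted p = 0.00486), with Jun at 2.65 ± 0.32, Zfp36 at 2.50 ± 0.33 and Ier2 at 2.20 ± 0.24 (adjusted p = 0.000621, 0.000899 and 0.000429).

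All 10 calls held without any 1 library and without the shared barcodes. The size of the Atf3 difference rested on single HP and stromal libraries: it was 4.81 without adult HPs, 4.84 without adult stroma and 6.25 to 6.27 without the first E16.5 HP, E18.5 HP or E18.5 stromal library. Dusp1 was at 2.06 without adult HPs. When every cluster counted equally in place of every UMI (limma on log2(CPM + 1)), 9 of 10 members were called. Of 18407 genes tested that way, 5165 were called higher and 4248 lower. The differences shrank to 3.71 for Fos, 3.61 for Atf3 and 1.40 to 2.97 for the others, and Dusp1 was not called (1.62, limma adjusted p = 0.0566).

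**Figure D2:**
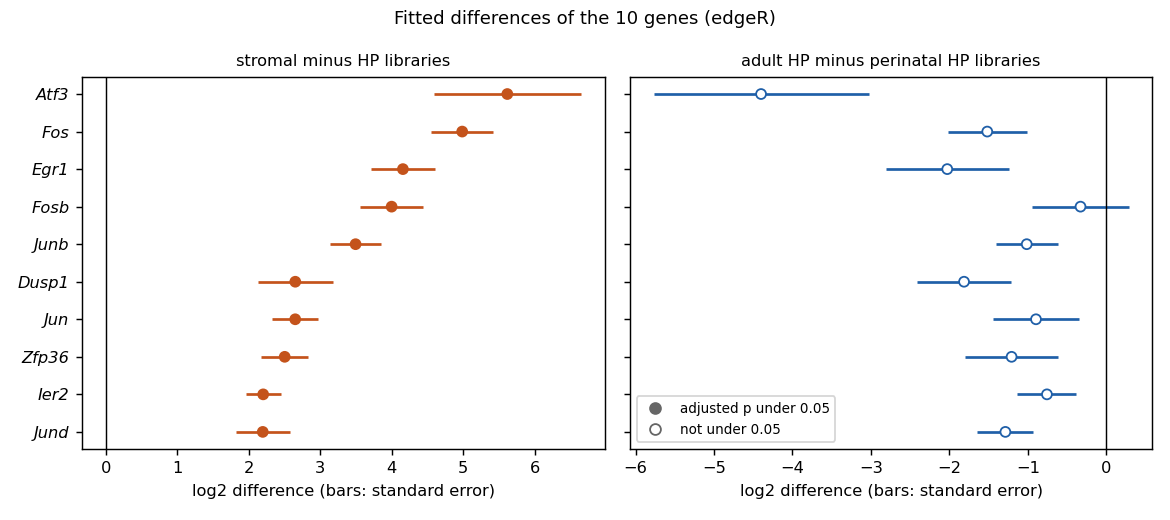
Fitted log2 differences of the 10 genes with standard errors. Left, stromal minus HP libraries, where all 10 genes passed the test (filled points, edgeR adjusted p under 0.05). Right, adult HPs minus perinatal HPs, where all 10 estimates lie below 0 and none passed (open points).

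The makeup of the immediate early signal differed between the compartments as well as its size. Fos made up 22.5% to 26.2% of the 10 genes' UMIs in each stromal library and 5.96% to 8.28% in each HP library. Jund made up 8.53% to 12.2% in the stroma and 16.9% to 37.3% in HPs. Of 65 stromal clusters of at least 50 cells, Fos was the most abundant member in 57, while of 73 HP clusters Jun led in 31, Jund in 29 and Fos in 6. These shares describe the libraries and were not tested.

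Other genes of the response were read from lists of AP-1 partners, immediate early factors and effectors, feedback regulators, upstream kinases and factors, and heat shock genes. These lists too were chosen with earlier results of these data known. Of 11 other AP-1 family genes tested, 6 rose in the stroma and none fell, with a median log2 difference of 1.04 (over all genes 32.0% rose and 25.8% fell, the background also for the lists that follow). They included Fosl1 (4.43 ± 0.69 SE, edgeR adjusted p = 0.00178), Maff (4.13 ± 0.43, adjusted p = 0.000338) and Fosl2 (2.76 ± 0.34, adjusted p = 0.000683). Of 20 other immediate early factors, 17 rose and none fell (median 3.03), led by the orphan nuclear receptors Nr4a3 (6.38 ± 0.37, adjusted p = 3.08e-05) and Nr4a2 (5.64 ± 0.31, adjusted p = 2.7e-05) and by Egr4 (5.48 ± 0.96, adjusted p = 0.00292).

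Of 18 effectors tested, 13 rose in the stroma and none fell (median 2.35), beside 32.0% and 25.8% of all genes. The largest differences were those of the matricellular genes Ctgf (13.23 ± 0.43, edgeR adjusted p = 8.54e-06) and Cyr61 (9.83 ± 0.70, adjusted p = 6.45e-05) and of the chemokine gene Cxcl1 (8.50 ± 1.25, adjusted p = 0.0014). Both matricellular genes were almost undetected in HPs. Ctgf was at 0 to 0.152 CPM in HPs and 123 to 876 CPM in the stroma, and Cyr61 at 0.186 to 1.29 and 288 to 640 CPM, so the Ctgf difference depends on a handful of HP counts.

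Of 15 feedback regulators 6 rose and 3 fell (median 0.60), where 32.0% and 25.8% of all genes did. The 6 included the cytokine-signaling inhibitor Socs3 (6.15 ± 0.63, edgeR adjusted p = 0.00031), Dusp8 (6.06 ± 0.50, adjusted p = 0.000118) and Spry4 (3.95 ± 0.28, adjusted p = 6.61e-05). The 3 that fell were Dusp2 (−3.53 ± 0.49, adjusted p = 0.00111), Tnfaip3 (−2.50 ± 0.80, adjusted p = 0.0312) and Zfp36l2 (−1.61 ± 0.32, adjusted p = 0.00467), a paralog of Zfp36. The call for Tnfaip3 was lost when any of 7 of the 9 libraries was left out, the exceptions being both adult libraries.

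Of 18 upstream genes tested, 5 rose and 6 fell (median −0.24), shares near those over all genes (32.0% higher and 25.8% lower). Elk1, a partner of serum response factor, rose (1.49 ± 0.26, edgeR adjusted p = 0.00271), as did Elk3 (0.92 ± 0.16, adjusted p = 0.00293) and Mkl2 (0.87 ± 0.23, adjusted p = 0.0168), whereas the kinase genes Rps6ka1 (−4.12 ± 0.23, adjusted p = 2.86e-05), Mapk14 (−1.65 ± 0.20, adjusted p = 0.000575) and Mapkapk2 (−0.79 ± 0.17, adjusted p = 0.00697) fell. Mkl2 lost its call without either E18.5 or either P0 library, and Mapkapk2 without E18.5 HPs.

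Of 14 heat shock genes, which respond to warming and protein stress, 7 rose and 3 fell (median 0.39), beside 32.0% and 25.8% of all genes. Hspb1 (7.03 ± 1.49, edgeR adjusted p = 0.00647), Hspa1a (4.65 ± 0.34, adjusted p = 7.62e-05) and Hspa1b (4.54 ± 0.36, adjusted p = 0.000102) rose, the latter as a pair of near-identical genes whose reads may be split between them. Hspd1 (−1.44 ± 0.34, adjusted p = 0.0102), Hsp90aa1 (−1.06 ± 0.28, adjusted p = 0.0161) and Hsp90ab1 (−0.81 ± 0.28, adjusted p = 0.0449) fell, and the latter pair lost the call in 4 and 7 of the 9 fits without 1 library, and Hspd1 without P0 stroma.

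Levels of the immediate early genes were also compared between stages. The test run was adult against the perinatal stages together, with 1 adult library per compartment, and differences among the perinatal stages are described without a test. Handling differed with age as well. By the study's methods, adult marrow came from tibias, femurs, pelvic bones and spines and underwent red blood cell lysis. Fetal marrow came from the skeleton without the head, and lysis was left out. Adult stage and this handling cannot be told apart. In HPs the adult library was the lowest of 5 for 9 of the 10 genes, all but Fosb, which was lowest in the first E16.5 library. Cell-type markers moved with it. The neutrophil marker list summed to 37595 CPM in adult HPs against 818 to 7110 CPM in the perinatal HP libraries, the erythroid list to 1889 against 18.7 to 385 CPM and the mast cell list to 283 against 1114 to 33820 CPM, and their part in the adult level was not tested. E18.5 HPs were the highest for 9 of the 10, all but Jund, which was highest in the first E16.5 library. Such orders, here and in the stroma, were not counted over all genes. The members also varied together over clusters, so these counts do not stand for separate observations. The adult's place differed in the stroma. There, E16.5 was the lowest of 4 for 9 of the 10 genes (Jun was lowest at P0), and the adult the highest for 8 of the 10 (Egr1 and Ier2 were highest at E18.5). Stromal markers moved as well. In adult stroma the osteolineage list summed to 6450 CPM (203 to 325 in perinatal stroma) and the endothelial list to 346 CPM (38.3 to 64.6). The chondrocyte list was at 16426 CPM at E16.5 and 33660 to 42824 CPM later. Their part in the stromal levels was not tested.

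None of the 10 genes passed the test for an adult difference in HPs, with 0.223% of 19323 genes called by edgeR. All 10 estimates were negative, with a median log2 difference of −1.25 against −0.04 over all genes, and 6 had an unadjusted edgeR p under 0.05, as did 2894 of all genes tested. Atf3 was at −4.40 ± 1.37 SE, Egr1 at −2.03 ± 0.79, Dusp1 at −1.81 ± 0.60, Fos at −1.52 ± 0.50, Jund at −1.29 ± 0.36 and Junb at −1.01 ± 0.40. Adjusted p-values ran from 0.188 (Jund) to 0.818 (Fosb). DESeq2 called Fos, Jund, Atf3 and Dusp1 (adjusted p = 0.0293, 0.0112, 0.00111 and 0.0302) among 1040 genes. With clusters counted equally (limma on log2(CPM + 1), which also changes tool and scale) Atf3 was at −0.54 and Fosb at 0.28. That count gave full weight to the adult HP cluster that the authors named Stroma (56 cells, Atf3 244 CPM, Fosb 488 CPM). Its part in these 2 values was not tested. Of the other lists only Socs3 was called in HPs, lower in the adult (−2.54 ± 0.34, edgeR adjusted p = 0.0392).

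In the stroma none of the 10 genes passed the same test, with 4.05% of genes called, and none had an unadjusted edgeR p under 0.05. The estimates ran from −0.17 (Egr1, SE 0.70) to 0.92 (Dusp1, SE 0.51), and DESeq2 called none of the 10 either. Mapk3 alone among the other lists was called, higher in the adult (1.28 ± 0.26, edgeR adjusted p = 0.0407). The difference between the compartments in the adult change was positive for all 10 genes (median 1.61 against 0.10 over all genes), from 0.74 (Ier2, SE 0.51) to 4.91 (Atf3, SE 1.60). edgeR called 0 of 19323 genes for it, with 5 of the members and 3800 genes at an unadjusted p under 0.05, whereas DESeq2 called Jund, Atf3 and Dusp1 (adjusted p = 0.0178, 0.0118 and 0.0146) among 1790 genes. Pooled over compartments the adult difference was called for no member and for 0.679% of genes, and no member had an unadjusted edgeR p under 0.05.

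The authors divided each library into clusters, here named by their codes. Levels by cluster describe 1 library each and were not tested. Among 73 HP clusters of at least 50 cells the summed level ran from 187 CPM (adult EryP2) through a median of 1123 CPM to 15070 CPM (E18.5 Bas1). Among 65 stromal clusters it ran from 1887 CPM (P0 UD2) through 6704 CPM to 19794 CPM (E18.5 C6). In all, 21 HP clusters lay above the lowest stromal cluster and 3 above the stromal median, and no stromal cluster lay below the HP median. Some HP clusters held many cells whose barcode another library held with at least 10 times the UMIs. Such cells made up 92.0% of adult Mast4i, 65% of adult Mast4ii, 55.5% of P0 Mast4 and 47.4% of adult MyP4. Medians and counts over clusters, and fits with clusters counted equally, include them and were not repeated without them.

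**Figure D3:**
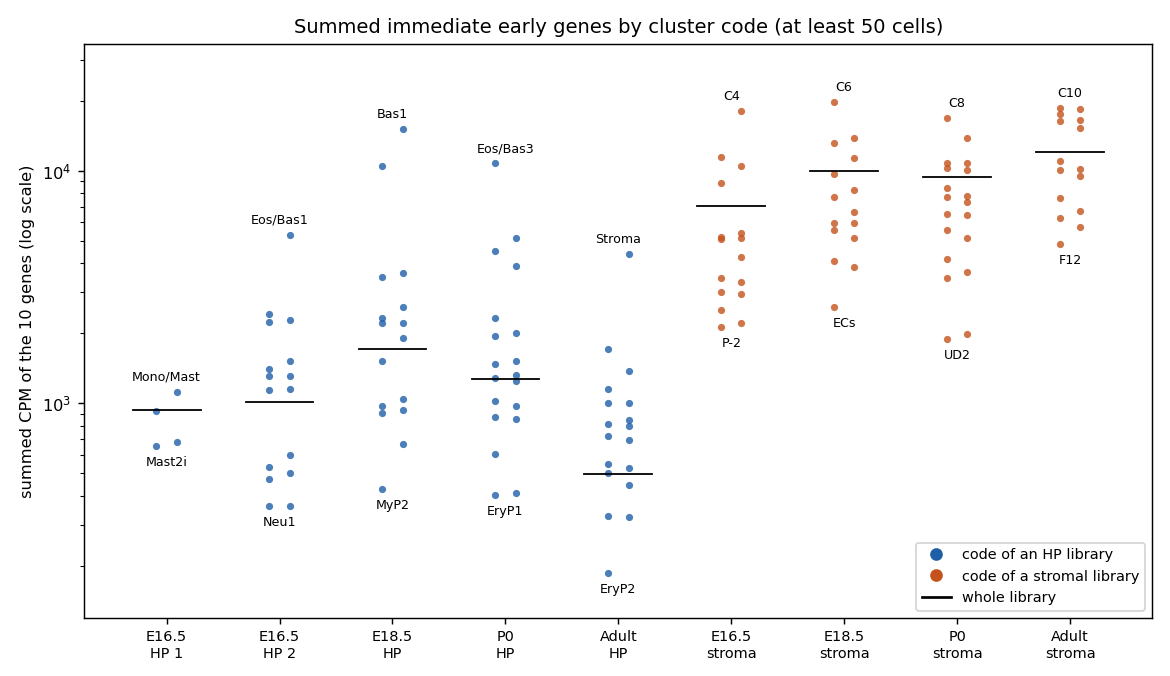
Summed CPM of the 10 genes (log scale) in every cluster of at least 50 cells (points) and in the whole library (bars), with the lowest and highest cluster of each library named. E18.5 HP Bas1, P0 HP Eos/Bas3 and E18.5 HP Mono2 reach the range of the upper stromal clusters, while the median HP cluster is at 1123 CPM.

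The highest HP clusters were ones that the authors named for basophils, eosinophils and monocytes. Kit ranged from 5.69 CPM (E18.5 Mono2) to 173 CPM (P0 Mono2) in the 5 highest, with 164.8 CPM in Eos/Bas1 of the second E16.5 library. E18.5 Bas1 (274 cells) was at 15070 CPM (exact Poisson 95% interval 14894 to 15248, counting error only). It carried the basophil protease genes Mcpt8 (1769 CPM) and Prss34 (609.7 CPM), with Ptprc at 471 CPM and Kit at 15.6 CPM. Bas1 held 7.88% of the E18.5 HP cells and 25.2% of their immediate early UMIs. Jun (3352 CPM), Egr1 (2812 CPM) and Zfp36 (1779 CPM) led in it, while Fos was at 781 CPM and Atf3 at 18.8 CPM.

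P0 Eos/Bas3 (80 cells, Mcpt8 1662 CPM, Kit 66.3 CPM) was at 10787 CPM and had the same leading pair, Jun (2679 CPM) and Egr1 (1988 CPM). In the same library Bas2 was at 1938 CPM, 5.57-fold lower. In the second E16.5 HP library Eos/Bas1 (79 cells) was at 5306 CPM, and the 18 cells of that code in the first were at 1741 CPM. Adult Eos/Bas4 was at 1382 CPM.

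E18.5 Mono2 (80 cells), with the macrophage genes C1qa (5548 CPM) and C1qb (6042 CPM) and Kit at 5.69 CPM, was at 10433 CPM (10196 to 10675). It differed from the basophil-like clusters in Atf3, which was at 1060 CPM there against 18.8 CPM in Bas1. Mono2 at P0 was at 5128 CPM with Atf3 at 338 CPM. Atf3 was below 10 CPM in 52 of the 73 HP clusters and above 200 CPM in 7, which were the 3 Mono1 clusters and Mono2 at E18.5, Mono2 and DC3 at P0, and the adult cluster named Stroma.

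**Figure D4:**
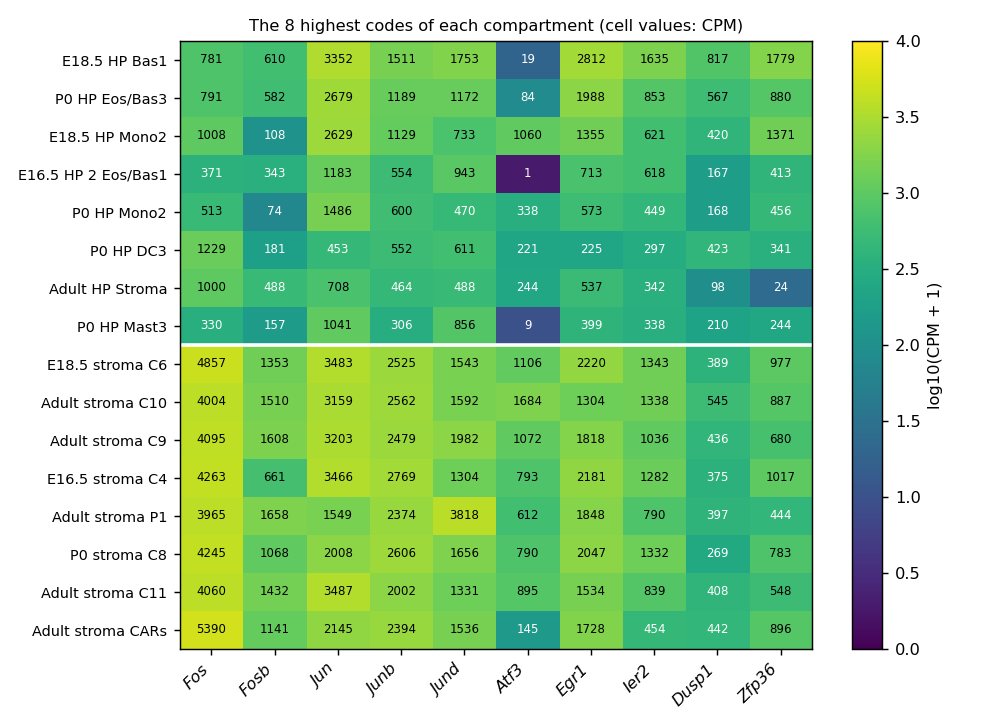
CPM of each gene in the 8 HP clusters (above the white line) and the 8 stromal clusters (below it) with the highest summed level, colored by log10(CPM + 1). Fos leads in all 8 stromal clusters, Jun in 6 of the 8 HP clusters, and among the HP clusters shown Atf3 ranges from 0.931 CPM in E16.5 HP 2 Eos/Bas1 to 1060 CPM in E18.5 HP Mono2.

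Clusters named for stem and progenitor cells lay below the 5 highest clusters, on both sides of the HP cluster median of 1123 CPM. HSPC1 at E16.5 was at 1551 CPM in the first library (33 cells) and 1307 CPM in the second, HSPC2 at 937 CPM (E18.5) and 1247 CPM (P0), and HSPC5 in the adult at 696 CPM. The P0 clusters HSPC3 and HSPC4 were at 976 and 876 CPM. The stem and progenitor marker list summed to 417 and 377 CPM in the 2 HSPC1 clusters, against 873 CPM in E18.5 HSPC2. HSPC1 also carried monocyte, macrophage and dendritic cell markers (7727 and 2909 CPM) and mast cell markers (3586 and 4363 CPM). Erythroid EryP1 (P0) was at 404 CPM, myeloid MyP2 at 428 CPM (E18.5) and 605 CPM (P0), and neutrophil Neu3 (adult) at 324 CPM. The clusters TCell1 to TCell4 and TCell6 of the second E16.5 library lay between 364 and 602 CPM, and TCell5 was at 2241 CPM there, 1044 CPM at E18.5 and 1520 CPM at P0.

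Leaving out the highest clusters, chosen after seeing the data, narrowed the gaps between the HP libraries and kept the order of the libraries. The part of cluster makeup in that order was not tested. Without Bas1 and Mono2, E18.5 HPs were at 1222 CPM, and without Eos/Bas3 and Mono2, P0 HPs were at 1163 CPM. Both remained above the E16.5 libraries without Eos/Bas1 (919 and 965 CPM) and above adult HPs (495 CPM without the cluster named Stroma). Clusters with at least 20 cells in both E16.5 libraries differed by up to 2.07-fold (Mast2ii, higher in the second), and some smaller ones by more, such as TCell5 (13 cells at 724 CPM in the first, 2241 CPM in the second). This pair is the only measure here of the spread within a stage.

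The adult HP library held a cluster of 56 cells that the authors named Stroma. It contained 180 immediate early UMIs, or 4392 CPM (3774 to 5083), 8.88-fold the 495 CPM of the rest of its library, and adult stroma was 2.74-fold higher. It carried stromal genes such as Col2a1 (14666 CPM), Cxcl12 (3465 CPM) and Col1a1 (1000.5 CPM), but the neutrophil marker list summed to 10102 CPM in it, and its median cell had 555 UMIs. Of its cells 13 shared a barcode with a deeper library. They were at 1297 CPM (622 to 2385), and the other 43 at 5110 CPM (4371 to 5939). No stromal library held a cluster named for a hematopoietic type, so blood cells prepared at 37 °C could not be compared.

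In the stroma 6 of the 8 highest clusters had a C code, the others being P1 (17455 CPM) and CARs, both adult. C6 (E18.5) was at 19794 CPM, C10 and C9 (adult) at 18584 and 18408 CPM, C4 (E16.5) at 18110 CPM and C8 (P0) at 16805 CPM. Clusters with a C code carried the cartilage collagen gene Col2a1 at 18296 to 72045 CPM. In C6 Fos was at 4857 CPM, Jun at 3483 CPM, Junb at 2525 CPM and Atf3 at 1106 CPM. The highest Fos level of any HP cluster of this size was 1229 CPM, in P0 DC3.

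Adult CARs, the Cxcl12-rich reticular cells (Cxcl12 20242 CPM) known to support hematopoietic stem cells, were at 16272 CPM, with the highest Fos level of all 138 clusters (5390 CPM) and Atf3 at 145 CPM. The lowest stromal clusters were UD2 and UD3 (P0), at 1887 and 1986 CPM, and P-2, F1 and P1i (E16.5), at 2125, 2217 and 2521 CPM. Endothelial cells (ECs) were at 2998, 2590 and 3675 CPM at E16.5, E18.5 and P0. In the adult, the arterial (AECs) and sinusoidal (SECs) endothelial clusters were at 10197 and 11006 CPM, 2.78-fold and 3.00-fold the P0 value.

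Of 6 codes with at least 50 cells in both E18.5 and P0 HPs, 4 were higher at P0, against the order of the whole libraries. They were HSPC2 (937 and 1247 CPM), Mast3 (2588 and 3891 CPM), MyP2 (428 and 605 CPM) and TCell5 (1044 and 1520 CPM), while Mono2 and Bcell1 (972 and 860.3 CPM) were lower. Among stromal codes met at several stages, P1 was 4.51-fold higher in the adult (17455 CPM) than at E18.5 (3872 CPM). F2 was at 2939 CPM at E16.5, 5583 CPM at E18.5 and 7752 CPM at P0, and F5 at 3470 CPM at E16.5 and 8406 CPM at P0. By contrast C1 was at 5387 CPM at E16.5 and 5116 CPM at P0, and CF1 at 9653 CPM at E18.5 and 10285 CPM at P0. With 1 library a stage these are descriptions, and whether a shared code held like cells at each stage was not tested.

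The cells were next compared at equal depth, by drawing 1000 UMIs from each cell and leaving out 16 to 1471 cells per library that had fewer. The mean number of immediate early UMIs per cell was 1.09, 1.22, 3.34, 1.80 and 0.740 in the HP libraries and 6.55, 8.97, 8.61 and 11.3 in the stroma. The median was 1 UMI in each perinatal HP library, 0 in adult HPs, and 4, 6, 7 and 8 in the stroma, so the gap was seen in typical cells. The lowest stromal mean was 1.96-fold the highest HP mean, and 2.23-fold without thinning and with the shallower cells put back. No immediate early UMI was drawn in 41.3% to 57.1% of HP cells and in 4.56% to 15.1% of stromal cells. The share of cells with at least 10 UMIs was 0.101% (adult) to 9.25% (E18.5) in HPs and 25.3% to 45.4% in the stroma.

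The highest clusters differed in how many of their cells were high. In E18.5 Bas1 the median cell had 12 immediate early UMIs of 1000, and 55.3% of cells had at least 10. In P0 Eos/Bas3 the median was 10 (52.5% of cells at 10 or more). The median was 6.5 in E18.5 Mono2 (37.5%), 4 in P0 Mono2 (23.9%) and 4 in Eos/Bas1 of the second E16.5 library (34.2%). In E18.5 C6 the median was 17, with 81.0% of cells at 10 or more and none at 0. Adult CARs were more uneven, with a median of 11 but 14.8% of cells at 0 and 54.0% at 10 or more. In adult EryP2 81.2% of cells had none.

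**Figure D5:**
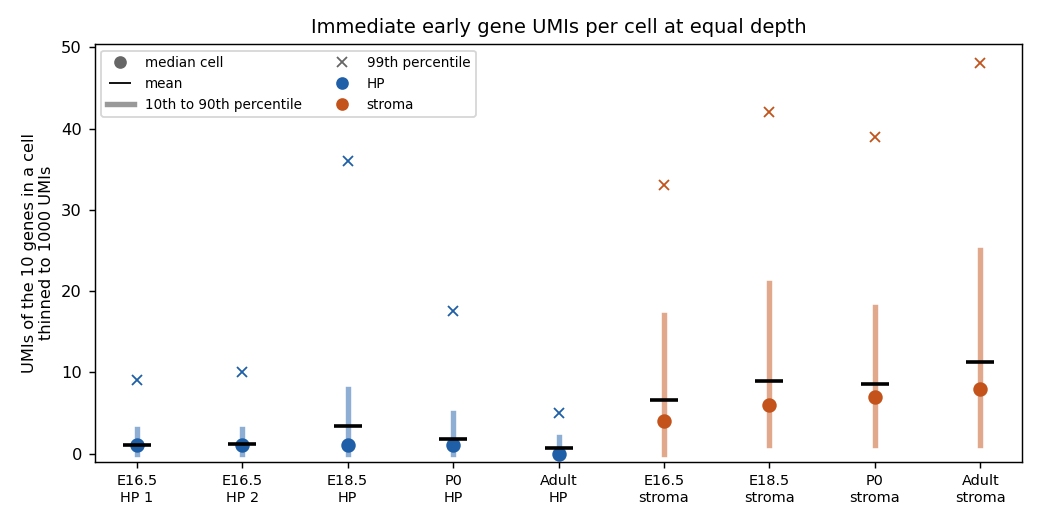
UMIs of the 10 genes per cell after thinning each cell to 1000 UMIs, as the median (circle), the mean (line), the 10th to 90th percentile (bar) and the 99th percentile (cross) of the cells of each library. The median is 0 or 1 in HPs and 4 to 8 in the stroma. The 99th percentile of E18.5 HPs (36) lies within the stromal range (33 to 48).

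The signal varied with depth in HPs and in perinatal stroma, and with mitochondrial share in perinatal stroma. The cells of each library were split into 5 bins of like size by their number of UMIs. From the shallowest to the deepest bin the summed level went from 2078 to 738 CPM in the second E16.5 HP library, from 3727 to 754 CPM in P0 HPs and from 1096 to 342 CPM in adult HPs. In E18.5 HPs the next-to-shallowest bin was the highest (9088 CPM), and the deepest was at 823 CPM. In the stroma it went from 4604 to 8241 CPM at E16.5, from 6582 to 12409 CPM at E18.5 and from 8162 to 11524 CPM at P0, where the next-to-shallowest bin was the lowest (6594 CPM). Adult stroma had its lowest level (9537 CPM) in the middle bin and 12842 and 14739 CPM in the outer ones.

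With 5 bins by mitochondrial share, the level was lower in the highest than in the lowest bin in perinatal stroma, going from 9212 to 4996 CPM at E16.5, from 14462 to 6177 CPM at E18.5 and from 13638 to 6027 CPM at P0. It was 10103 and 11822 CPM in the outer bins of adult stroma, and between 1189 and 1312 CPM in all bins of P0 HPs. Clusters differ in depth and mitochondrial share, and the part of either in the levels was not tested.

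The members varied together over the clusters. Over the 73 HP clusters, the Pearson correlation of log2(CPM + 10) of a member with that of the summed others ran from 0.663 (Atf3) to 0.925 (Junb), and over the 65 stromal clusters from 0.726 (Jund) to 0.955 (Fosb). Clusters of 1 library share its preparation and depth, and these values are descriptions. Outside the list, the genes most like the summed members over all 138 clusters included Ppp1r15a (r = 0.904), Skil (0.895), Maff (0.894), Coq10b (0.893), Sertad1 (0.884), Socs3 (0.882), Gm26532 (0.882), Btg2 (0.875) and Ifrd1 (0.869). Within the HP clusters alone these correlations ran from 0.610 (Sertad1) to 0.888 (Ppp1r15a).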

How the data were processed

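Each sample's group was read from its label. The authors deposited raw UMI counts per gene and cell, made with Cell Ranger 3.1.0 on mm10, after filters on genes, UMIs, mitochondrial share and upper percentiles against doublets, and no doublet caller was run here. The HP libraries held the number of cells the study states and the stromal libraries fewer, from which the study removed blood cells. The deposited table of cells gave library, compartment, cluster, counts of UMIs and the mitochondrial share as a fraction. Its 12 other columns and the antibody counts were not used.

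Counts were summed per library over all deposited cells and tested with edgeR 4.0.16 (R 4.3.3, TMM, filterByExpr, quasi-likelihood F test, Benjamini-Hochberg over all genes tested, threshold 0.05), with stage and compartment, or compartment, adult and their product, as terms. Standard errors were computed from the F statistic. DESeq2 1.42.0 and limma 3.58.1 served as alternatives. The scripts were tested on simulated data. Levels are CPM with exact Poisson 95% intervals, which cover counting error only. Counts and ranges over clusters took those of at least 50 cells, and smaller ones are named with their number of cells. Sums and levels were computed in Python 3.11.15 (pandas 2.3.3, numpy 2.4.6, scipy 1.17.1) and plots drawn with matplotlib 3.10.9.

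The members and gene lists were chosen with earlier results of these data known. Named genes were the 10 members, the 3 called genes of each list with the largest change in each direction, the 10 genes most like the members (1 of them is not reported here), and the 4 promoters of the members with the largest differences, leaving out chromosome 18. The adult comparison within each compartment and the repeats without shared barcodes or without the highest clusters were added after seeing the data.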

Additional observations from a re-analysis of the deposited data

How the results depend on the processing

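All 180 values of the 10 genes for stroma against HPs kept their direction over the alternatives (other normalizations, DESeq2, no filter, at least 1000 UMIs per cell, no stage term, clusters counted equally, other cell sets and each library left out), and 179 stayed past the threshold, the exception being Dusp1 with clusters counted equally. For adult HPs, 135 of 140 member values kept their direction and side, and DESeq2 called 4 members that edgeR did not. Fosb reversed to 0.28 with clusters counted equally, the adult HP cluster named Stroma among them. For the interaction DESeq2 called 3 members and the other alternatives none.

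Counts over all genes moved more. DESeq2 called 1338 genes for adult against perinatal (125 with edgeR), 1040 in HPs (43), 2391 in stroma (783) and 1790 for the interaction (0). Clusters counted equally gave 347, 1909 and 1254 genes for the last 3, and DESeq2 size factors, cells of at least 1000 UMIs and cells without barcodes met in a deeper library gave 1 gene each for the interaction. Leaving out 1 library gave 13 (without E18.5 stroma) to 774 (without adult HPs) genes for adult against perinatal, 4 to 64 in HPs, 30 to 1456 in stroma and 0 to 1 for the interaction. Without TMM the median of all genes shifted to −0.22 in adult HPs and 0.39 for the interaction. For stroma against HPs, 4746 genes were called lower, and 2991, 3076 and 3106 without E18.5 HPs, P0 HPs and P0 stroma. The cause of these changes was not tested. HP and stromal libraries were matched by stage, which entered as a term. By replicate number, no paired analysis was possible because only the E16.5 HP libraries carry one in their labels. The interaction cannot be estimated without either adult library, and the adult contrast within 1 compartment was not run without the adult library of the other.

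The ratio of the lowest stromal to the highest HP library (4.11) was 3.47 without Fos, 4.50 without Jun, 4.40 without Jund and 5.78 without the highest HP clusters. In thinned cells the ratio of the lowest stromal to the highest HP mean was 1.96, and 2.23 without thinning and with the shallower cells put back. The adult HP cluster named Stroma went from 4392 to 5110 CPM without barcodes met in a deeper library. With 1 library for most stages, stage differences rest on the assumption that the lone libraries vary like the others. Atf3 in adult HPs rests on 39 UMIs, some of them from the cluster named Stroma.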
